A study of Mus musculus with 2 samples.

Results

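The macrophages of mouse pancreatic islets that carried the most transcript of 4 receptor genes, Cx3cr1, Cxcr4, Csf2rb and Csf2rb2, were described in single-cell RNA sequencing of islet immune cells. Barcodes were kept with at least 500 genes, at least 1000 UMIs (unique molecular identifiers, each counting 1 captured transcript) and at most 10% of UMIs from mitochondrial genes. A kept barcode was called a macrophage when its UMIs of the complement genes C1qa, C1qb and C1qc, typical of resident macrophages, summed to 5 or more. A macrophage was selected when the share of its UMIs from the 4 receptor genes lay at or above the 90th percentile of the macrophages in its own library. The rule took 125 of 1243 macrophages in the 1-week library and 162 of 1620 in the 12-week library, 287 of 2863 in all. These came from 3092 kept barcodes among 3418 deposited. The selected cells were compared with the remaining macrophages of the same library.

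Both libraries came from islets of male C57BL/6J mice fed chow, each from a pool of 6 to 8 animals, with cells sorted as DAPI-negative, Epcam-negative and CD45-positive. One pool carried the time label 1 week and the other 12 weeks. The meaning of the weeks is not stated, and each label came with an experiment number of its own, so that time and experiment cannot be told apart. No test was made between the time labels. The p-values below rest on 2 libraries, each a pool, which leave 1 residual degree of freedom. Each gene's spread is therefore drawn toward a spread pooled over genes. The weight of the pooled spread, in prior degrees of freedom, was 8.32 for selected against remaining macrophages and differed between fits. Where that weight was infinite, the p-value rests on the pooled spread alone. The libraries held 12858754 UMIs (1 week) and 12448628 UMIs (12 weeks) over 1551 and 1867 barcodes, and shared 3 barcodes.

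Cx3cr1 encodes the receptor of fractalkine, a membrane-bound chemokine, and is a standard marker of monocyte-derived and tissue-resident mononuclear phagocytes. Cxcr4 encodes the receptor of Cxcl12, which guides and retains leukocytes in tissues. Csf2rb encodes the beta common chain, the signalling subunit that GM-CSF, IL-3 and IL-5 receptors share and that acts through Jak2 and Stat5. Csf2rb2 is a mouse gene for a beta chain specific to IL-3. Islet macrophages live beside beta cells and blood vessels and are known for a baseline activated state, with MHC class II and interleukin-1 beta.

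In the GRCm38 annotation Cx3cr1 (ENSMUSG00000052336) lies at chr9:119901616-120069879 on the minus strand and Cxcr4 (ENSMUSG00000045382) at chr1:128588199-128592293, also minus. Csf2rb (ENSMUSG00000071713) lies at chr15:78325752-78353847 on the plus strand, beside its near copy Csf2rb2 (ENSMUSG00000071714) at chr15:78282507-78305721 on the minus strand. Reads can be shared between such copies: of the 91-base windows of the transcripts Csf2rb-206 and Csf2rb2-201, 387 of 4810 (8.05%) and 387 of 4650 (8.32%) were identical. None of 910 windows in the last 1000 bases of either transcript was shared, which is the end that a 3′ library reads. The 250 bases before the start of 3 of the 4 receptor genes, and of Cxcl2 and Hspa1a, a chemokine and a chaperone gene that were lower in the selected cells, were taken from RefSeq (GRCm38.p6); 5 of 6 genes looked up matched, all but Csf2rb. They are shown because the 4 receptor genes were summed as if they moved together and the other genes moved the other way. Each is printed 5′ to 3′ on the gene's strand, with motif matches in capitals.
Cx3cr1, chr9:120068297-120068546, minus strand: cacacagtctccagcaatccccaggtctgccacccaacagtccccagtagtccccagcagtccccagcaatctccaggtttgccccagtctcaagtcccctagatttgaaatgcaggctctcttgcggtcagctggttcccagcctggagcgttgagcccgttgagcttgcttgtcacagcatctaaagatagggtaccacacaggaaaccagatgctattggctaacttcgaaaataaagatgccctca
Cxcr4, chr1:128592300-128592549, minus strand: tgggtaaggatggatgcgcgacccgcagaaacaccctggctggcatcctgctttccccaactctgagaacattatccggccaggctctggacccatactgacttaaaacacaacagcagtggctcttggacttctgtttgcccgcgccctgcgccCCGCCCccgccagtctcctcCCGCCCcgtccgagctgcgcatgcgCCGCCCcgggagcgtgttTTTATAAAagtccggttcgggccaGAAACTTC
Csf2rb2, chr15:78305722-78305971, minus strand: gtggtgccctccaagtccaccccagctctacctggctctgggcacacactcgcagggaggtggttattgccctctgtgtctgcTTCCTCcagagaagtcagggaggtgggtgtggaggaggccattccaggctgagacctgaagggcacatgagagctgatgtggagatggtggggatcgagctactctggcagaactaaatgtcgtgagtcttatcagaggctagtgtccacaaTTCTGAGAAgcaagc
Cxcl2, chr5:90903649-90903898, plus strand: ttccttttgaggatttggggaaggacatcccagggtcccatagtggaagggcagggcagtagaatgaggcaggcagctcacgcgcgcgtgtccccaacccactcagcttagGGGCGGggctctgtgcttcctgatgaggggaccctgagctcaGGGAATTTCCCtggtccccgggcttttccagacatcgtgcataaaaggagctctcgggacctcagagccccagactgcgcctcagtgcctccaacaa
Hspa1a, chr17:34972157-34972406, minus strand: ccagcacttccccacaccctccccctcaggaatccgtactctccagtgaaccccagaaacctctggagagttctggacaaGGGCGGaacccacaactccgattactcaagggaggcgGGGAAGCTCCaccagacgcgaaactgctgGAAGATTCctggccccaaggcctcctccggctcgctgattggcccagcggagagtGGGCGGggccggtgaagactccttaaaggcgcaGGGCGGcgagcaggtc

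6 motifs were searched on both strands: the PU.1 core GAGGAA, the STAT5 palindrome TTCNNNGAA, the heat shock element core GAANNTTC, the NF-kB consensus, the GC box GGGCGG and the TATA box TATAAA. The Cx3cr1 window held none of them. That window lies inside the Cx3cr1 interval given above, because the RefSeq start it precedes is not the start in that annotation. The bases before the annotated start were not searched. The Cxcr4 window held 3 GC boxes, a TATA box that matched on both strands over overlapping bases, and a heat shock core. The Csf2rb2 window held a PU.1 core and a STAT5 palindrome. The Cxcl2 window held an NF-kB consensus, which matched on both strands, and a GC box, and the Hspa1a window held 3 GC boxes, an NF-kB consensus and a heat shock core. Of 32851 mouse promoter windows of the same length, 23.3% held the PU.1 core, 7.02% the STAT5 palindrome, 6.69% the heat shock core, 7.25% the NF-kB consensus, 32.7% the GC box and 12.4% the TATA box. A match is a run of letters and no measured binding site.

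The 4 receptor genes chose the cells, so their values are given as a description. In the 1-week library Cx3cr1 stood at 799 CPM (UMIs per 1000000 UMIs of the group, 95% Poisson interval 741 to 861) in the selected cells and 105.5 CPM in the rest. In the 12-week library it stood at 410 CPM (374 to 449) and 88.8 CPM. The higher 1-week level rested in part on 1 cell with 251 Cx3cr1 UMIs of 3772, without which the level was 512 CPM. Cxcr4 stood at 261 and 62.2 CPM at 1 week and at 267 and 63.5 CPM at 12 weeks. Csf2rb stood at 282 and 91.7 CPM at 1 week and at 378 and 74.7 CPM at 12 weeks, and Csf2rb2 at 159 and 56.5 CPM and at 191 and 45.1 CPM. The selected cells held more of each gene in both libraries, as the rule requires. These and all later intervals cover counting error only.

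**Figure D1:**
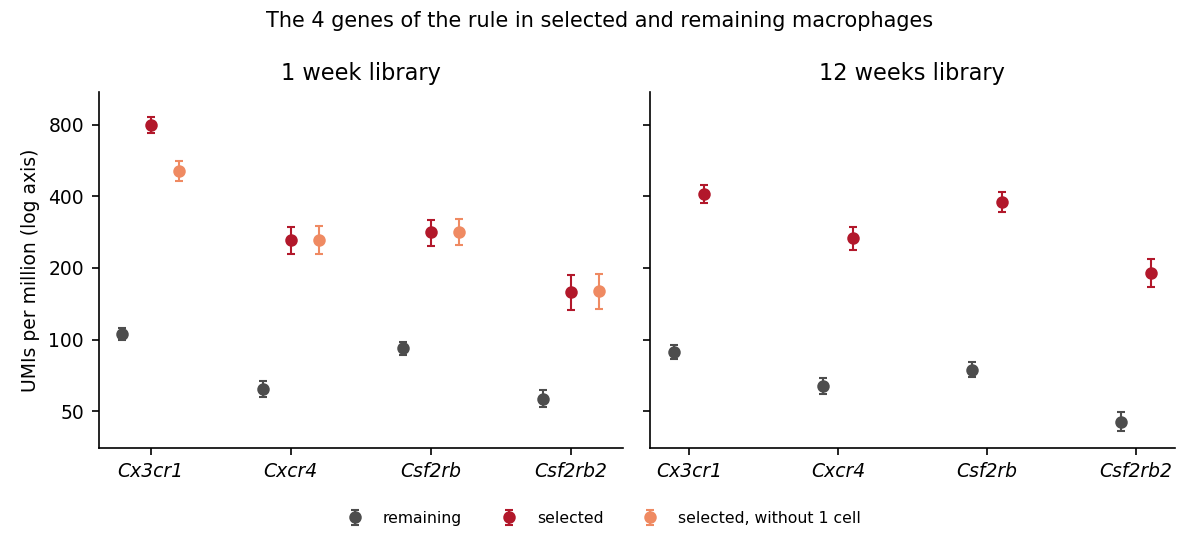
Level of the 4 genes of the rule, in CPM on a log axis, in selected and remaining macrophages of each library, with 95% Poisson intervals. The third 1-week point of each gene leaves out the cell with 251 Cx3cr1 UMIs, which moves Cx3cr1 from 799 to 512 CPM.

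At least 1 Cx3cr1 UMI was found in 88.0% (95% exact binomial interval 81.0 to 93.1) of the 125 selected cells at 1 week and in 80.9% of the 162 at 12 weeks, against 43.3% and 36.4% of the rest. For Cxcr4 the shares were 55.2% and 70.4% against 31.8% and 30.7%, for Csf2rb 63.2% and 81.5% against 39.1% and 33.1%, and for Csf2rb2 50.4% and 68.5% against 27.7% and 23.9%. Free RNA can put UMIs into any droplet, so the same shares were read in B cells of the same libraries, which had median depths of 5539 and 3127 UMIs. Cx3cr1 was found in 1 of 28 B cells at 1 week (3.57%) and in none of 29 at 12 weeks, and Csf2rb2 in none of 28 and none of 29 (exact binomial upper limits 12.3% and 11.9%). Cxcr4, which lymphocytes express, was found in 8 of 28 and 4 of 29 B cells, and Csf2rb in 6 of 28 and 2 of 29. The shares in the remaining macrophages stood above those in B cells for all 4 genes. The exact binomial intervals of the B cells held the macrophage share for Cxcr4 (13.2 to 48.7% and 3.89 to 31.7%). They also held it for Csf2rb at 1 week (8.30 to 41.0%). The remaining macrophages were deeper, with medians of 7563 and 6886 UMIs, and the part of depth was not tested.

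The selected cells were not uniform. All 4 genes were detected together in 35 cells at 1 week (28.0%) and 49 at 12 weeks (30.2%), and a single gene in 28 (22.4%) and 7 (4.32%). Cx3cr1 had the most UMIs of the 4 in 64 of the 125 selected cells at 1 week (51.2%) and in 54 of the 162 at 12 weeks (33.3%). Csf2rb led in 19 and 38 cells, Cxcr4 in 18 and 24, and Csf2rb2 in 6 and 10. The others had a tie. The remaining macrophages included 304 cells at 1 week (27.2%) and 394 at 12 weeks (27.0%) with no UMI of any of the 4.

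The rule rests on few molecules. The cutoff was 8.82 UMIs per 10000 at 1 week and 8.76 at 12 weeks, and the median selected cell had 7 and 8 UMIs of the 4 genes. The cell just inside the cutoff had 7 of 7929 UMIs at 1 week and 8 of 9096 at 12 weeks, and the cell just outside had 2 of 2270 and 6 of 6855. At 1 week 21 selected cells (16.8%) and at 12 weeks 10 (6.17%) were selected on 2 or 3 UMIs. Depth moved with selection at 1 week: the median was 6205 UMIs in the selected and 7563 in the remaining cells, and 31.2% against 10.3% of cells lay under 3000 UMIs. At 12 weeks the medians were 7034 and 6886 UMIs. Of macrophages with 1000 to 2000 UMIs at 1 week, 30.9% were selected, against 6.29% of those with 16000 or more. With every cell thinned to 3000 UMIs, the same percentile rule, in which ties at low counts widen the choice, took 153 of 1089 cells at 1 week and 193 of 1530 at 12 weeks. Of these, 67 and 109 were among the 86 and 151 originally selected cells deep enough to thin, and 86 and 84 were not. At that depth the originally selected cells had a Cx3cr1 UMI in 67.4% against 23.5% of the rest at 1 week and in 60.9% against 21.9% at 12 weeks, a direction that the choice of cells fixes.

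All 9 macrophage markers (C1qa, C1qb, C1qc, Cd68, Adgre1, Csf1r, Apoe, Lyz2 and Fcgr1) were detected, with a summed level of 39841 CPM against 39375 CPM in the rest at 1 week and 42066 against 41790 CPM at 12 weeks. Mitochondrial UMIs had a median of 3.76% against 3.36% at 1 week and 3.23% against 3.04% at 12 weeks. Summed B cell markers reached 69.1 CPM against 65.6 CPM at 1 week and 1.75 against 5.92 CPM at 12 weeks, and T cell markers 6.91 against 14.1 CPM and 13.1 against 24.8 CPM. Dendritic cell markers reached 48.4 against 20.4 CPM and 25.3 against 21.8 CPM, with Zbtb46 and Kmo at 0 in the 1-week and Clec9a and Kmo at 0 in the 12-week selected cells. Monocyte markers reached 97.9 against 78.8 CPM and 82.1 against 58.9 CPM, with Chil3 at 0 in both libraries and Vcan and F13a1 also at 0 at 1 week. Markers of NK and innate lymphoid cells were higher in the selected cells in both libraries, at 315 against 249.3 CPM and 389 against 296 CPM, with Ncr1, Klrb1c, Prf1 and Gata3 at 0 in both and Gzma also at 0 at 1 week. The share of cells with 2 or more of these UMIs was 41.6% against 45.3% at 1 week and 59.9% against 46.0% at 12 weeks, and their part in later results was not tested. Neutrophil markers reached 33.4 against 23.4 CPM and 33.2 against 84.4 CPM. Markers of endocrine cells, whose transcripts include insulin, were lower in the selected cells, at 2919 against 21157 CPM and 2934 against 6087 CPM.

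Whether the 4 genes go together was tested by selecting cells on 3 of them and measuring the fourth, which that selection did not use. Cxcr4, Csf2rb and Csf2rb2 were each higher in cells selected without them, and Cx3cr1 was not called. The prior degrees of freedom were 10.5 in the Cx3cr1 fit and infinite in the fits of Cxcr4, Csf2rb and Csf2rb2. A call in one fit and none in another thus does not show that Cx3cr1 differs from the others. Cxcr4 stood at 131 CPM in the cells selected without it and 73.4 CPM in the rest at 1 week, and at 166 and 74.3 CPM at 12 weeks (log2 fold 0.81, SE 0.15, edgeR adjusted p = 1.61e-05). Csf2rb stood at 158 and 102.2 CPM, and at 228 and 91.7 CPM (0.82, SE 0.13, edgeR adjusted p = 3.78e-08). Csf2rb2 stood at 101.5 and 61.4 CPM, and at 127 and 52.2 CPM (0.82, SE 0.16, edgeR adjusted p = 2.38e-05). In each of these both libraries had the higher level in the selected cells.

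Cx3cr1 stood at 181 CPM in the cells selected on the other 3 genes and 156 CPM in the rest at 1 week, and at 201 and 112 CPM at 12 weeks (log2 fold 0.43, SE 0.14, edgeR adjusted p = 0.199). The unscaled log2 CPM ratio was 0.22 at 1 week and 0.84 at 12 weeks. The cell with 251 Cx3cr1 UMIs lay among the remaining cells here. Without it the 1-week ratio was 0.46 and the fold 0.55 (edgeR adjusted p = 0.0621). With cells thinned to one depth the Cx3cr1 fold was -0.091 (edgeR adjusted p = 0.937), and among cells at or above the median depth of their library it was 0.58 (edgeR adjusted p = 0.00798). With stricter cell filters it was 0.54 and also passed (edgeR adjusted p = 0.0123). The prior degrees of freedom were 47.7 with thinned cells, infinite among deeper cells and 389.5 with stricter filters. Of all genes in the 4 fits, in the order Cx3cr1, Cxcr4, Csf2rb and Csf2rb2 left out, 1.87%, 5.4%, 6.57% and 6.34% passed in either direction. The Cxcr4 call was lost in DESeq2 (adjusted p = 0.0534), with thinned cells (edgeR adjusted p = 0.0562) and at the 95th percentile (edgeR adjusted p = 0.111). The Csf2rb2 call was lost in DESeq2 (adjusted p = 0.0898) and at the 95th percentile (edgeR adjusted p = 0.242). The Csf2rb call was lost without the library block (edgeR adjusted p = 0.445). It was also lost when droplets with 2 or more UMIs of another cell type's markers were left out (edgeR adjusted p = 0.212). None of the 4 genes passed in either of these settings. Without the NK cell list in that filter, Cxcr4, Csf2rb and Csf2rb2 passed and Cx3cr1 did not.

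Across all genes, the selected macrophages had more lower than higher genes against the rest, among them genes of the inflammatory, heat shock, antioxidant and islet hormone lists. Chemokines and cytokines such as Cxcl2 and Il1a, chaperones such as Hspa1a, NRF2 targets such as Hmox1, and hormone transcripts such as Ins2 were lower in both libraries. Fewer genes were higher, among them S100a4, S100a6, Mefv and Anxa1. Of 9949 genes tested, 45 (0.452%) were higher and 218 (2.19%) lower at a Benjamini-Hochberg adjusted p under 0.05 in edgeR's quasi-likelihood test with library as a block. All 263 (2.64%) had the same sign in both libraries. Folds below are log2 values scaled by TMM, on which the median gene stood at -0.0012, whereas the unscaled CPM ratio of the median gene was 0.17 at 1 week and 0.18 at 12 weeks (log2). DESeq2 called 15 higher and 136 lower genes, and without the library block none was called.

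**Figure D2:**
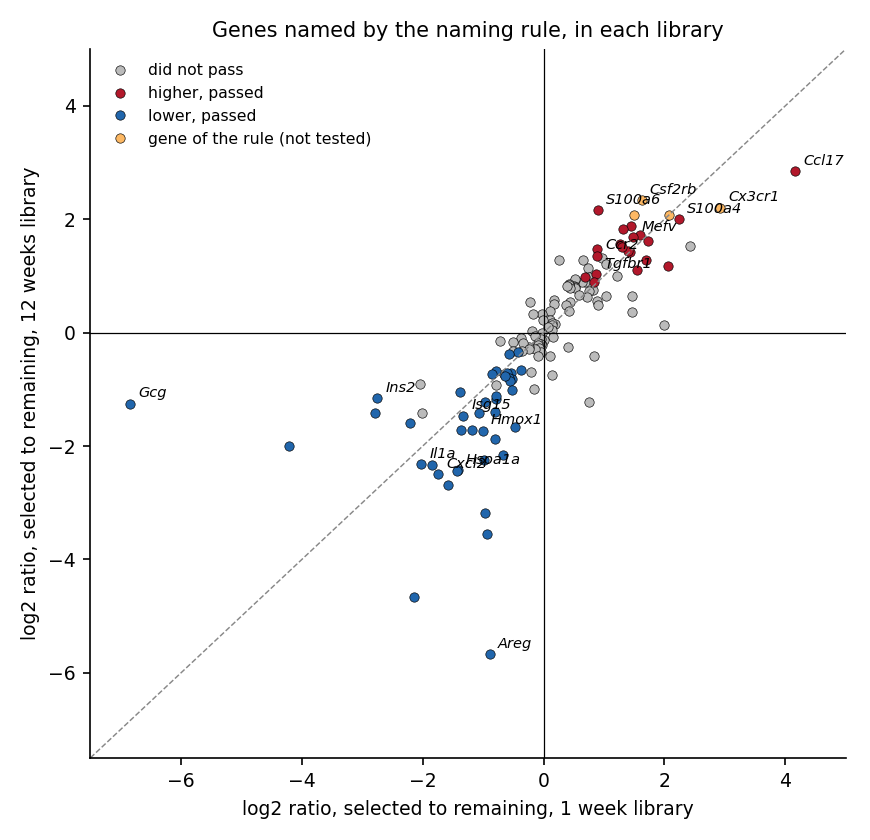
Unscaled log2 ratio of the CPM level in selected to remaining macrophages in the 1-week library (x axis) and the 12-week library (y axis), for the genes named by the naming rule with UMIs in all 4 profiles, 1 point per gene, coloured by whether and in which direction it passed edgeR's test. The dashed line marks equal ratios. Blue points (lower) lie below 0 and red points (higher) above 0 on both axes, while Gcg lies far to the left in the 1-week library and Areg far down in the 12-week library.

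The 27 tested genes of the inflammatory cytokine and NF-kB list had a median log2 fold of -1.11, with 14 lower and none higher. Cxcl2, a chemokine that draws neutrophils, stood at 1274 CPM in the selected cells and 4284 CPM in the rest at 1 week, and at 865 and 4877 CPM at 12 weeks (log2 fold -2.31, SE 0.17, edgeR adjusted p = 0.000423). Il1a, an alarm cytokine of the interleukin-1 family, stood at 51.8 and 211 CPM, and at 22.7 and 113 CPM (-2.33, SE 0.16, edgeR adjusted p = 0.000421). Both were lower in both libraries in level and in the share of cells with a UMI, which for Cxcl2 was 62.4% against 82.8% at 1 week and 51.9% against 82.6% at 12 weeks. Ccl4, a chemokine that draws leukocytes, stood at 829 and 2126 CPM, and at 566 and 1862 CPM (-1.72, SE 0.13, edgeR adjusted p = 0.000423). Ccl3, a related chemokine, stood at 277 and 628 CPM, and at 236 and 780 CPM (-1.64, SE 0.15, edgeR adjusted p = 0.00114). The anti-inflammatory cytokine Il10 fell with them, from 100 to 33.4 CPM at 1 week and from 61.7 to 9.61 CPM at 12 weeks (-2.18, SE 0.25, edgeR adjusted p = 0.0029).

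The 15 tested heat shock chaperones had a median log2 fold of -1.07, with 13 lower and none higher. Hspa1a, an inducible Hsp70, stood at 622 CPM in the selected cells and 1664 CPM in the rest at 1 week, and at 544 and 2935 CPM at 12 weeks (log2 fold -2.11, SE 0.21, edgeR adjusted p = 0.00169). At 1 week the shares of cells with an Hspa1a UMI were close, 52.8% and 56.6%, and at 12 weeks they were 25.9% and 61.5%. Its near-identical copy Hspa1b had a fold of -2.13, and how reads were split between the copies is not stated in the sources used here. Hsp90aa1, the inducible Hsp90, stood at 1171 and 1786 CPM, and at 2645 and 4318 CPM (-0.84, SE 0.11, edgeR adjusted p = 0.00616). Hsph1, a partner of Hsp70, had a fold of -1.16. The count of lower chaperones was 5 when droplets with 2 or more UMIs of another cell type's markers were left out, and 15 when the NK cell list, part of which macrophages also express, was not used for that. The first filter left 588 macrophages at 1 week and 704 at 12 weeks, with 59 and 71 selected, and a list median of -0.93. The second left 1093 and 1447 macrophages, with a list median of -1.21. Over all genes, 122 of 7764 were lower with the first filter and 529 of 9523 with the second.

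Antioxidant genes are the subject of the study. The 30 tested NRF2 targets and antioxidant genes had a median log2 fold of -0.36, with 9 lower and none higher. Hmox1, which breaks down heme, stood at 936 CPM in the selected cells and 1882 CPM in the rest at 1 week, and at 1221 and 4040 CPM at 12 weeks (log2 fold -1.56, SE 0.17, edgeR adjusted p = 0.00245). Srxn1, which repairs oxidised peroxiredoxins, stood at 115 and 225 CPM, and at 211 and 495 CPM (-1.30, SE 0.13, edgeR adjusted p = 0.00185). Prdx1, a peroxiredoxin, stood at 1637 and 2562 CPM, and at 2041 and 3456 CPM (-0.89, SE 0.11, edgeR adjusted p = 0.00488). Txnrd1, the cytosolic thioredoxin reductase, had a fold of -0.89 (edgeR adjusted p = 0.00838). The other 21 tested genes of the list did not pass.

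Of 23 interferon response genes 6 were lower and none higher, with a median log2 fold of -0.49. Isg15, a ubiquitin-like interferon-induced protein, stood at 88.6 CPM in the selected cells and 223 CPM in the rest at 1 week, and at 74.3 and 205 CPM at 12 weeks (log2 fold -1.58, SE 0.14, edgeR adjusted p = 0.00107). Cxcl10, a ligand of Cxcr3, had a fold of -1.54, and the antiviral genes Rsad2 and Ifit1 had folds of -2.21 and -2.25. DESeq2 called 2 of 15 tested genes of this list lower, beside 136 of 3774 over all genes. Of 22 immediate early genes 5 were lower, Fosl1 (-2.32), Klf4 (-1.76), Atf3 (-1.25), Jund (-0.88) and Ier3, which fell outside the naming rule and was named after its value was seen. The median of that list was -0.51.

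Of 10 tested growth factor and regulatory cytokine genes 3 were lower, Areg, Hbegf and Il10, and none higher. The median log2 fold was -0.37, but 0.0702 among deeper cells and 0.0215 when cells were chosen by receptor UMIs. Hbegf, a ligand of the epidermal growth factor receptor, had 0 UMIs in the selected cells of both libraries and 9.21 and 9.71 CPM in the rest. Against a floor of 3 UMIs over the selected cells of both libraries, 1.49 CPM, it was at least 6.34-fold lower. The chaperone gene Hspa1l and the zinc finger gene Plagl1, also at 0, were at least 4.35-fold and 3.57-fold lower. Areg, a second such ligand, stood at 12.7 and 23.4 CPM at 1 week and at 0.874 and 44.7 CPM at 12 weeks (log2 fold -2.68, SE 0.59, edgeR adjusted p = 0.0493). Other genes with the lowest folds were Ifnb1, the interferon beta gene (-4.62), Helz2 (-3.50), Slpi, a protease inhibitor (-3.42), Meg3 (-4.38) and 2010015M23Rik (-3.64). The fold of Hbb-bs, a haemoglobin gene (-4.59), rested on few cells: 1 cell held 100% of its UMIs in the remaining cells at 1 week and 95.3% at 12 weeks.

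All 11 tested islet hormone transcripts were lower in the selected cells, with a median log2 fold of -2.55. Ins2, insulin, stood at 2012 CPM in the selected cells and 13585 CPM in the rest at 1 week, and at 1985 and 4410 CPM at 12 weeks (log2 fold -2.14, SE 0.30, edgeR adjusted p = 0.00854). The shares of cells with an Ins2 UMI were close, 91.2% and 95.6% at 1 week and 95.1% and 95.3% at 12 weeks. Iapp, amylin, and Chga, chromogranin A, had folds of -2.28 and -2.15. For Gcg, glucagon (-5.88), 1 cell held 98.2% of the UMIs in the remaining cells at 1 week. With macrophages of over 1% hormone UMIs left out, Ins2 had a fold of 0.22, Iapp 0.20 and Chga 0.36, the list's median was 0.14, and 1 of 10 tested transcripts was lower. The inflammatory and heat shock lists then had 21 and 15 lower genes, with medians of -1.16 and -1.04, near those of the main fit. Over all genes 514 of 9833 were lower in that fit, against 218 of 9949 in the main fit. The prior degrees of freedom were infinite in that fit and 8.32 in the main fit.

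**Figure D3:**
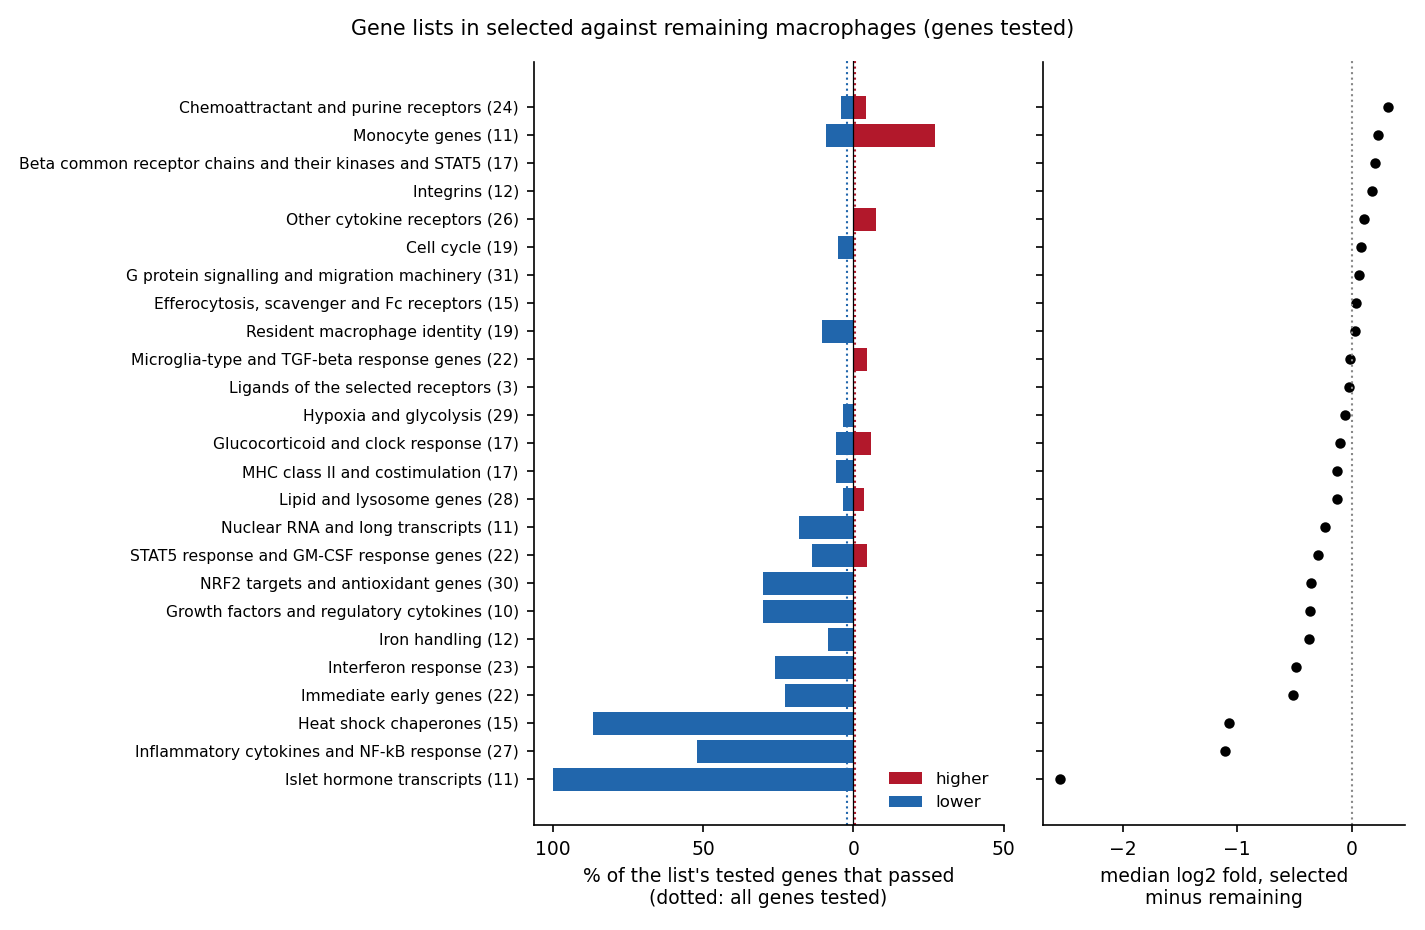
Left, percentage of the tested genes of each gene list that were lower (blue, to the left of 0) or higher (red, to the right) in selected macrophages, with dotted lines at the percentages over all genes (2.19% and 0.452%) and the number of tested genes in parentheses. Right, median log2 fold of each list, which is near -1.07 for heat shock chaperones, -1.11 for the inflammatory list and -2.55 for hormone transcripts.

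Among higher genes, S100a4, a calcium-binding protein of motile cells, stood at 100 CPM in the selected cells and 21.3 CPM in the rest at 1 week, and at 65.5 and 16.4 CPM at 12 weeks (log2 fold 1.94, SE 0.17, edgeR adjusted p = 0.00113). S100a6, of the same family, stood at 101 and 54.3 CPM, and at 138 and 31.0 CPM (1.37, SE 0.25, edgeR adjusted p = 0.0249). S100a4 was seen in a minority of cells, 15.2% against 6.08% at 1 week and 12.3% against 4.8% at 12 weeks. Mefv, which encodes the inflammasome sensor pyrin, stood at 40.3 and 14.4 CPM, and at 41.1 and 12.7 CPM (1.41, SE 0.21, edgeR adjusted p = 0.0123). Anxa1, an annexin that restrains inflammation, stood at 39.1 and 16.3 CPM, and at 78.7 and 26.6 CPM (1.26, SE 0.19, edgeR adjusted p = 0.0116). With droplets of 2 or more UMIs of other cell types' markers left out, the folds of Mefv and Anxa1 were 0.81 and 0.28 and neither passed. The summed dendritic cell and monocyte markers moved the same way (values above), and their part in these genes was not tested.

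Of 11 tested monocyte genes (9 of 20 were too low to test) 3 were higher, S100a4, S100a6 and Ccr2, and 1 lower, Nr4a1, a nuclear receptor of patrolling monocytes (log2 fold -1.46). The median of the list was 0.23. Ccr2, the receptor that brings monocytes from marrow to tissue, stood at 57.6 CPM in the selected cells and 31.1 CPM in the rest at 1 week, and at 51.6 and 20.1 CPM at 12 weeks (0.94, SE 0.20, edgeR adjusted p = 0.0391). The call was lost in DESeq2, with thinned cells, among deeper cells and without the cell of 251 Cx3cr1 UMIs. The part of monocytes in these values was not tested.

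Ccl17, a chemokine induced by GM-CSF, had the highest fold of the higher genes (log2 fold 3.73, SE 0.43, edgeR adjusted p = 0.0029) but rested on 3 cells. At 1 week 28 of its 40 UMIs in the selected cells came from 1 cell, without which the level was 14.0 CPM against 2.56 CPM in the rest. At 12 weeks all 4 UMIs came from 1 cell. Ankle2 (1.47) likewise had 83.7% of its 1-week UMIs in 1 selected cell. Of the remaining higher genes by the naming rule, Dusp6, a phosphatase that acts on ERK, stood at 43.7 and 15 CPM, and at 25.3 and 11.8 CPM (1.15, SE 0.24, edgeR adjusted p = 0.036). Its fold was -0.21 when cells were chosen by the number of receptor UMIs in place of the share, and 0.08 among deeper cells. Txnip, a thioredoxin-binding protein, stood at 57.6 and 31.1 CPM, and at 83.9 and 30.2 CPM (1.03, SE 0.19, edgeR adjusted p = 0.0262). Tifab (1.37), Fgd4 (1.31), Arhgef10l (1.24), Zfp710 (1.23), Eif2b4 (1.22), Alg11 (1.51), Rbl2 (1.48) and Npat (1.48) stood between 12.7 and 33.4 CPM in the selected cells of either library.

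Downstream of Csf2rb, the list of receptor chains, kinases and STAT5 had 17 tested genes, none called, and a median log2 fold of 0.20 (2 higher and 1 lower at an unadjusted p under 0.05). Csf2ra, the chain that binds GM-CSF, stood at 310 CPM in the selected cells and 278 CPM in the rest at 1 week, and at 293 and 307 CPM at 12 weeks (log2 fold -0.14, SE 0.12, edgeR adjusted p = 0.628). Stat5a had a fold of 0.56 (edgeR adjusted p = 0.377) and Pik3cd, a phosphoinositide kinase subunit, 0.64 (edgeR adjusted p = 0.325). Of 22 genes known to respond to GM-CSF or STAT5, 1 was higher, Ccl17, and 3 were lower, Cdkn1a (-1.30), Il1rn (-0.82) and Pim1 (-0.65), with a median of -0.30. Pim1, a kinase gene induced by STAT5, stood at 226 and 336 CPM, and at 260 and 336 CPM.

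The ligands were scarce in these cells. Of 7 ligand genes 3 could be tested, and Csf2, Cxcl12, Il3 and Il5 were too low. Cx3cl1, fractalkine, stood at 9.21 and 3.32 CPM at 1 week and at 2.62 and 2.04 CPM at 12 weeks (log2 fold 0.88, SE 0.54, edgeR adjusted p = 0.491). None of the 3 passed, and their median was -0.03.

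Of 24 tested chemoattractant and purine receptors other than the genes of the rule, 1 was higher, Ccr2, and 1 lower, Ccrl2, a receptor that binds chemerin (log2 fold -1.16, edgeR adjusted p = 0.00563). The median was 0.32, and 10 were higher and 2 lower at an unadjusted p under 0.05. Cxcr3, the receptor of Cxcl10, stood at 12.7 and 2.37 CPM, and at 6.99 and 2.43 CPM (1.80, SE 0.47, edgeR adjusted p = 0.092). Gpr34, a lysophospholipid receptor, had a fold of 0.96 (edgeR adjusted p = 0.126), C5ar2, a complement C5a receptor, 0.93 (edgeR adjusted p = 0.0683), Gpr183, an oxysterol receptor, 0.61 (edgeR adjusted p = 0.103), Gpr65, a proton sensor, 0.54 (edgeR adjusted p = 0.0717), and P2ry6, a receptor of uridine diphosphate, 0.54 (edgeR adjusted p = 0.0942). Each of the 6 had the higher CPM level in both libraries, as did 45.0% of all genes tested, and none passed. With hormone-rich macrophages left out, 8 of the 24 were higher, while the list's median stayed at 0.32. Over all genes 189 of 9833 were higher in that fit, against 45 of 9949 in the main fit. The prior degrees of freedom were infinite in that fit and 8.32 in the main fit, and their part in the count was not tested. Of 12 integrins and of 31 genes of G protein signalling and migration none was called, with medians of 0.18 and 0.06, and Arrb2, a beta-arrestin, had a fold of 0.54 (edgeR adjusted p = 0.0864).

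Of 26 other cytokine receptors 2 were higher and none lower, with a median log2 fold of 0.10. Tgfbr1, the type I receptor of TGF-beta, stood at 538 CPM in the selected cells and 295 CPM in the rest at 1 week, and at 405 and 198 CPM at 12 weeks (log2 fold 0.76, SE 0.12, edgeR adjusted p = 0.0124). Ifngr1, a chain of the interferon gamma receptor, stood at 181 and 112 CPM, and at 213 and 109 CPM (0.66, SE 0.13, edgeR adjusted p = 0.032). Ifngr1 did not pass in DESeq2 or with thinned cells, where its fold was 0.24. Abcg1, a cholesterol exporter, stood at 170 and 96.0 CPM, and at 208 and 112 CPM (0.68, SE 0.12, edgeR adjusted p = 0.0229).

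Lists of macrophage identity moved little. Of 19 resident macrophage genes 2 were lower, Cd14, the lipopolysaccharide coreceptor (log2 fold -0.56), and Cebpb, a myeloid transcription factor (-0.70), with a list median of 0.03. Of 22 microglia-type and TGF-beta response genes Tgfbr1 alone was called, with a median of -0.01. Of 17 MHC class II and costimulation genes 1 was lower, Cd40 (-0.97), with a median of -0.13, and Cd86 had a fold of -0.30 that did not pass. Of 15 efferocytosis, scavenger and Fc receptor genes none was called, with a median of 0.04, and Stab1 and Fcgr2b had folds of 0.60 and 0.58 (edgeR adjusted p = 0.0576 for each).

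In the lipid and lysosome list, 28 genes were tested, Abcg1 was higher and Mmp12, an elastase, lower (log2 fold -0.92), with a median of -0.13. Apoe and Cd36 had folds of -0.27 and -0.64 that did not pass. The hypoxia and glycolysis list had 1 of 29 lower, Hilpda (-1.48), with a median of -0.06. The iron list had 1 of 12 lower, Hmox1, with a median of -0.37. The glucocorticoid and clock list had Txnip higher and Errfi1 lower (-0.95) of 17, with a median of -0.10. Of 19 cell cycle genes 1 was lower, Mki67 (-1.39), with a median of 0.08, and Cenpa had a fold of 0.83 (edgeR adjusted p = 0.052). Of 11 nuclear and long transcripts Kcnq1ot1 (-0.86) and Meg3 were lower, with a median of -0.24. For each of these lists the counts stood beside 0.452% higher and 2.19% lower over all genes.

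The levels followed the receptor share also below the cutoff. Macrophages of each library were put in order of their share and divided at the 50th, 80th, 90th and 95th percentiles, and no test was made. At 12 weeks the level of Cxcl2 was 5895, 4137, 2322, 1290 and 431 CPM from the lowest to the highest bin, and at 1 week 5244, 3563, 2741, 1063 and 1590 CPM. Hmox1 at 12 weeks ran 4549, 3692, 2700, 1406 and 1032 CPM. S100a4 ran the other way, with 10.1, 22.6, 62.6, 111.5 and 83.2 CPM at 1 week. Tgfbr1 at 1 week ran 240, 349, 344, 459 and 654 CPM. Above the cutoff some series turned. Hspa1a at 12 weeks ran 3572, 2449, 1400, 213 and 883 CPM, and Hmox1 at 1 week 2145, 1735, 1296, 771 and 1182 CPM. S100a4 at 12 weeks ran 8.02, 12.5, 65.4, 45.0 and 86.6 CPM. The top bin of the 1-week library had a median depth of 3523 UMIs per cell, so that its level rests on shallow cells.

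**Figure D4:**
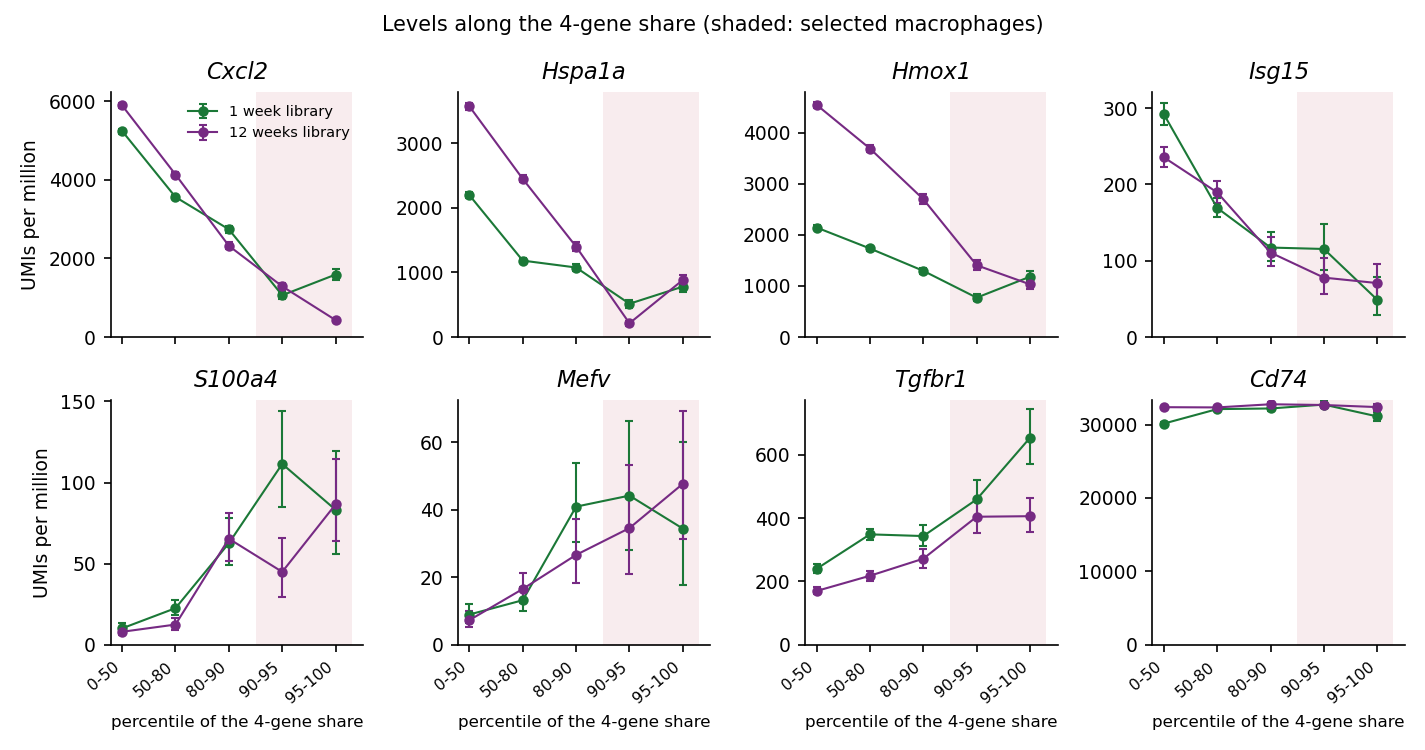
Level in CPM (y axes) of 8 genes over bins of the 4-gene share (x axes, percentile within the library) in the 1-week and 12-week libraries, with 95% Poisson intervals and the bins of selected cells shaded. Cxcl2, Hspa1a, Hmox1 and Isg15 decline through the unshaded bins, S100a4, Mefv and Tgfbr1 are higher in the shaded bins than in the lowest bin, and Cd74, the MHC class II invariant chain, keeps nearly one height.

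Each receptor gene was then used alone to select cells, at the same percentile, to see which of the differences went with which receptor. The shared cells of any 2 of the 4 sets made up 9.6% to 26.5% of either set. Each set held 125 of 1243 macrophages at 1 week and 162 of 1620 at 12 weeks. Sets drawn at random would thus share about 10.1% and 10.0% of their cells. The 4 selections come from the same libraries and share remaining cells, so their values are set side by side without a test between them. In these fits 3.07%, 2.53%, 1.46% and 1.65% of genes passed in either direction for Cx3cr1, Cxcr4, Csf2rb and Csf2rb2. Cxcl2 was lower under each (log2 folds -1.48, -1.08, -1.14 and -0.58 in that order), as were Hspa1a (-1.18, -0.83, -1.48 and -1.42) and Hmox1 (-1.34, -0.81, -0.58 and -0.41). S100a4 had folds of -0.68 (edgeR adjusted p = 0.334) under Cx3cr1, 1.25 under Cxcr4, 2.28 under Csf2rb and 1.80 under Csf2rb2. Mefv had -0.34 (edgeR adjusted p = 0.739), 1.08, 1.78 and 1.06, and both genes passed under the last 3. Dusp6 had 1.73 (edgeR adjusted p = 0.00098), 0.44, 0.44 and -0.80, and Txnip 1.21, 0.53, 0.23 and 0.19, each called under Cx3cr1 alone of the 4. Tgfbr1 had 0.70, 0.33, 0.38 and 0.35, called under Cx3cr1 and Cxcr4. A call under one receptor and none under another does not show that the folds differ. Depth also differed between the sets at 1 week. The median was 4587 UMIs in the cells chosen by Cx3cr1, and 7637, 7004 and 7620 for Cxcr4, Csf2rb and Csf2rb2. At 12 weeks these medians were 6816, 6665, 7150 and 6848 UMIs. Receptor and depth were not separated here.

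**Figure D5:**
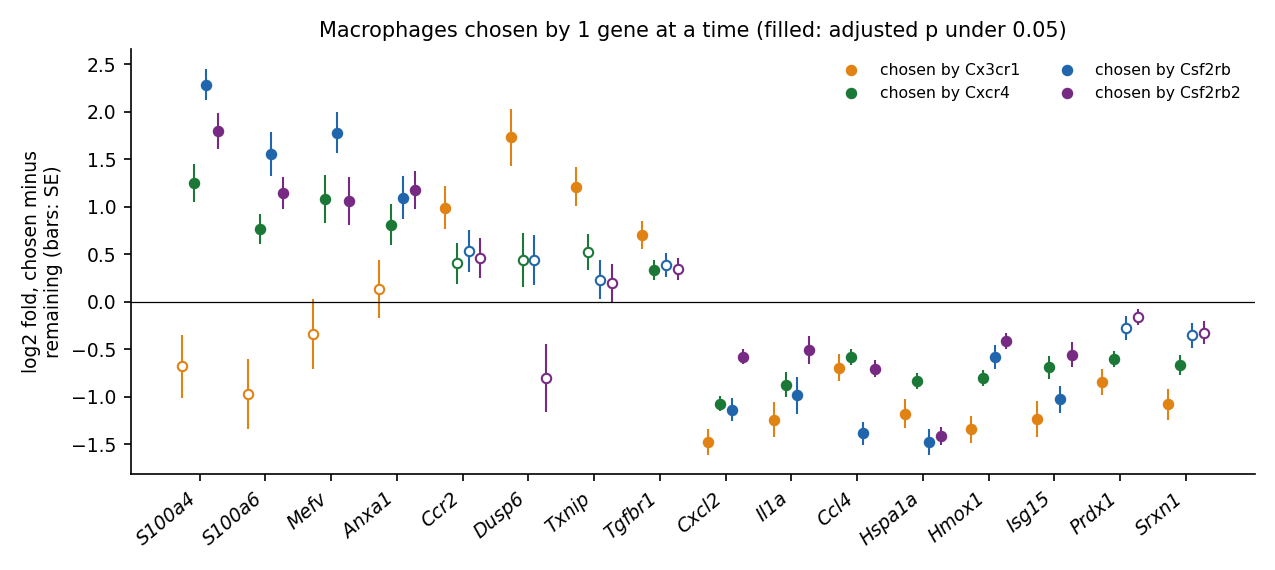
Log2 fold of selected against remaining macrophages (y axis, bars show the SE) for named genes (x axis) when cells were selected by 1 receptor gene alone, with 1 colour per receptor and filled points for genes that passed. S100a4, S100a6 and Mefv lie below 0 for Cx3cr1 and above 0 for the other 3 receptors, while Cxcl2, Hspa1a and Hmox1 lie below 0 for all 4.

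The selected cells were also compared with each other by leading gene, a comparison chosen after the values above were seen. It draws on the same libraries and receptor UMIs as the selections above, so it is no independent test of them. Cells in which Cx3cr1 led (64 at 1 week and 54 at 12 weeks) were compared with cells in which the other genes led (48 and 85, ties among those 3 included), with ties that involve Cx3cr1 left out and the library as a block. Of 4185 genes tested, 20 (0.478%) were higher and 32 (0.765%) lower where Cx3cr1 led, 1.24% in either direction. The genes named here were chosen after their values were seen. Where Cx3cr1 led, S100a6 stood at 42.0 CPM against 164 CPM at 1 week and 81.4 against 188 CPM at 12 weeks (log2 fold -1.60, SE 0.33, edgeR adjusted p = 0.00333). Lgals3, galectin-3, stood at 1578 against 3912 CPM, and at 3047 against 3612 CPM (-0.84, SE 0.14, edgeR adjusted p = 0.000242). The interferon-induced gene Ifitm3 stood at 75.7 against 264 CPM, and at 102.4 against 221 CPM (-1.5, SE 0.30, edgeR adjusted p = 0.00266). S100a6 was found in a minority of cells, 4 of 64 against 15 of 48 at 1 week and 7 of 54 against 30 of 85 at 12 weeks. At 1 week 1 cell held 12 of its 15 UMIs where Cx3cr1 led, and 1 cell held 28 of the 72 where another gene led. For Ifitm3, 1 cell held 43 of the 116 UMIs at 1 week where another gene led.

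Hmox1 and Cxcl2 were also lower where Cx3cr1 led (log2 folds -0.92 and -0.89), as were Irf7 (-2.04), Ptgs2 (-2.25) and Il1b (-0.67). Dusp6 (2.15), Txnip (1.45), Ccr2 (1.49), Gpr65 (1.12), Vcam1, an adhesion molecule (1.97), and Pf4, platelet factor 4 (2.73), were higher there in both libraries. Some of these rested on few UMIs. Pf4 had 15 against 2 UMIs at 1 week and 11 against 3 at 12 weeks. Vcam1 had 9 against 4 UMIs at 1 week and 36 against 12 at 12 weeks, where 1 cell held 13 of the 36. For Irf7, 1 cell held 19 of the 32 UMIs at 1 week where another gene led. Lpl, lipoprotein lipase, was called higher (1.63), with 154 against 25 CPM at 1 week and 18.4 against 17.9 CPM at 12 weeks, a difference in 1 library only. Tmem119, a microglial marker, stood at 213 against 43.2 CPM at 1 week and at 70.9 against 39.0 CPM at 12 weeks (1.56, SE 0.36, edgeR adjusted p = 0.0129). S100a4 (-1.22, edgeR adjusted p = 0.0663) and Mefv (-1.69, edgeR adjusted p = 0.0523) did not pass. In DESeq2, without the library block and with stricter cell filters, 0 genes were called in either direction. Depth moved with this split: at 1 week the median was 4009 UMIs where Cx3cr1 led and 8303 where another gene led, and at 12 weeks 7240 and 7067. With cells thinned to 3000 UMIs no gene was higher and 1 was lower, and among deeper cells Hmox1 and Cxcl2 had folds of 0.072 and 0.22. The part of depth in this comparison was not separated further.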

How the data were processed

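Islet immune cells of 2 libraries were sequenced with 3′ single-cell chemistry that counts UMIs. The deposited values were raw UMI counts per gene and barcode, made with Cell Ranger 3.1.0 per the file headers on the mm10 build per the submitters' processing notes; the step that called barcodes as cells is not stated in the sources used here. Counts of the selected and of the remaining macrophages were summed in each library, giving 4 profiles, and tested with edgeR 4.0.16 in R 4.3.3 (TMM scaling, filterByExpr, quasi-likelihood F test, library as a block, 1 residual degree of freedom, Benjamini-Hochberg adjustment over all genes tested). Cells, intervals and levels were handled in Python 3.11.15. The 4 genes of the rule stayed in the totals and were not tested. No doublet caller was run; droplets with 2 or more UMIs of another cell type's markers were left out in an alternative. The selected and remaining cells of a library come from the same pool, so the block pairs them; their deviations from the group means had r = 0.34 over 9953 genes.

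The receptor rule, the 25 gene lists (509 genes, 508 in the files, 458 tested) and the marker lists were chosen with earlier results of these data known. The value of 1 monocyte marker is not reported here. Named genes were, of those that passed with one sign in both libraries and at least 30 UMIs, the 15 highest and 10 lowest folds, plus up to 4 tested genes of each list by smallest p; genes of the beta common, ligand and chemoattractant lists could be named whether or not they passed. On simulated counts for the comparison of selected with remaining macrophages (9953 genes), 43% of 100 genes changed 2-fold and 79% of 100 changed 4-fold were recovered, with 2 false calls. Alternatives were DESeq2 1.42.0, its size factors, no filter on low counts, no block, other percentiles, thinning to 3000 UMIs, deeper cells, selection by UMIs, stricter cell filters (at least 1000 genes, at most 5% mitochondrial UMIs), at least 20 C1q UMIs, mixed droplets, and each library alone. Leaving out a cell with 50 or more UMIs of 1 rule gene, hormone-rich macrophages (over 1% of UMIs), or mixed droplets judged without the NK cell list was added after the data were seen, as was the comparison by leading gene.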

Additional observations from a re-analysis of the deposited data

Results flagged for a closer look

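The 4 receptor genes were also detected in kept barcodes that fell under the macrophage minimum, 97 at 1 week and 132 at 12 weeks, which enter no comparison above and were set against the limit that a count of 0 allows. Cx3cr1 stood at 11.4 and 20.3 CPM there, Cxcr4 at 47.2 and 93.9 CPM, Csf2rb at 110.9 and 252.4 CPM, and Csf2rb2 at 25.3 and 74.8 CPM. The Csf2rb level in these barcodes at 12 weeks lay between that of the remaining macrophages, 74.7 CPM, and that of the selected macrophages, 378 CPM.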

How the results depend on the processing

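Counts of calls depended on the settings far more than directions did. Against 45 higher and 218 lower genes, DESeq2 called 15 and 136 (3774 genes tested), its size factors in edgeR 88 and 340, no filter on low counts 124 and 572, the 80th percentile 229 and 534, the 95th percentile 70 and 263, at least 20 C1q UMIs 195 and 487, stricter cell filters 89 and 304, mixed droplets left out 36 and 122 (189 and 529 without the NK cell list), and hormone-rich macrophages left out 189 and 514. Without the replicate block, which drops the pairing of cells from one library, 0 and 0 passed in edgeR, with 352 and 537 at an unadjusted p under 0.05. Thinned cells gave 54 and 202, of which 17 and 146 were among the genes called above. The fits also differed in the prior degrees of freedom given to the pooled spread. These were 8.32 in the main fit, 21.9 with stricter filters and 144 with at least 20 C1q UMIs. They were 82.3 with mixed droplets left out and 225 without the NK cell list. They were infinite at the 80th and 95th percentiles, with thinned cells and with hormone-rich macrophages left out. The part of this in the counts was not tested, nor were other causes.

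For the receptor genes measured in cells selected without them, the ranges over libraries are unscaled log2 CPM ratios of the library kept. The other values are scaled folds, so the ranges and the folds are not on one scale. Cx3cr1 ran from 0.22 to 0.84 when each library in turn was left out. Its fold was -0.091 with thinned cells, 0.58 among deeper cells and 0.54 with stricter filters. Cxcr4 ran from 0.83 to 1.16 over the libraries and did not pass in DESeq2 (0.80), without the block (0.82), at the 95th percentile (0.65), with thinned cells (0.45) or with mixed droplets left out (0.81). Csf2rb ran from 0.63 to 1.32 and did not pass without the block (0.83) or with mixed droplets left out (0.95). Csf2rb2 ran from 0.72 to 1.28 and did not pass in DESeq2 (0.82), without the block (0.82), at the 95th percentile (0.56) or with mixed droplets left out (0.79).

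Of 1227 values of 85 named genes over 15 settings, 957 kept direction and call, 184 kept direction only, 78 gained a call and 8 changed sign. The 8 were Dusp6 (-0.21), Ankle2 (-0.074), Gpr34 (-0.29), Gpr65 (-0.12) and Slpi (0.16) when cells were chosen by receptor UMIs, and Ins2 (0.22), Iapp (0.20) and Chga (0.36) with hormone-rich macrophages left out. Within the selected cells, against 20 higher and 32 lower genes where Cx3cr1 led, counts were 0 and 0 in DESeq2 (13 and 33 at an unadjusted p under 0.05), 0 and 0 without the block (112 and 121), 0 and 0 with stricter filters (121 and 128), 0 and 1 with thinned cells, 7 and 12 among deeper cells, 26 and 53 with no filter, 11 and 27 without the cell of 251 Cx3cr1 UMIs, and 10 and 17 with mixed droplets judged without the NK cell list left out. Hmox1 (0.072) and Cxcl2 (0.22) changed sign there among deeper cells. The limits are 2 libraries, 1 residual degree of freedom and selection on few UMIs.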
